A study of Homo sapiens with 6 samples.

Results

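The genes described here are the 4 inhibitor of DNA binding genes ID1, ID2, ID3 and ID4 and 6 genes of TGF-beta and BMP signalling, namely the ligands TGFB1 and TGFB2, the receptors TGFBR1 and TGFBR2, and the inhibitory SMADs SMAD6 and SMAD7. They were chosen by symbol, with no rule on their values but with earlier results of these data known. Each of the 10 was read by exactly 1 probe set among 18417 genes tested. Expression was measured on 6 single-channel arrays of MCF10A, an established non-tumorigenic human mammary epithelial cell line, with ErbB2, a receptor tyrosine kinase, in the name that both groups share. Three-dimensional culture in reconstituted basement membrane lasted 7 days in medium with horse serum, insulin, cholera toxin and hydrocortisone, and cells and matrix were lysed together. There were 3 arrays labelled RB-proficient (titles with the tag miNS) and 3 labelled RB-deficient (tag miRB). RB is the retinoblastoma protein, the labels do not spell out the tags, and they do not say whether a group was 1 clone or whether replicates were separate cultures, so the p-values cover only the spread among these arrays, which may be technical. The groups are called proficient and deficient below, as labelled, with arrays numbered as in the titles.

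ID proteins are helix-loop-helix proteins without a DNA-binding region. They pair with E proteins, the partners of tissue-specific bHLH factors, and keep them off DNA. ID2 is also known to bind RB itself. BMPs bind a receptor pair that phosphorylates SMAD1, SMAD5 and SMAD9, whereas TGF-beta and activins act through SMAD2 and SMAD3. Both sets join SMAD4 to enter the nucleus. ID1, ID2 and ID3 are classical BMP targets, and SMAD6 and SMAD7 are induced by the pathway and feed back on its receptors. In mammary epithelium TGF-beta restrains growth, and ID genes are linked to an undifferentiated, proliferative state.

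Promoter sequence from RefSeq (GRCh38.p14) was found for all 10 genes. The 120 bases before the annotated start are shown for ID1 and ID3, because their differences between the groups lay furthest apart among the ID genes, and for SMAD6, because it held a SMAD motif. They run 5′ to 3′ on the gene strand, from chr20:31605169-31605288 (plus strand) for ID1, chr1:23559502-23559621 (minus strand) for ID3 and chr15:66702116-66702235 (plus strand) for SMAD6. Capitals mark matches to TATAA, searched on the gene strand, or to the palindrome GTCTAGAC that SMAD proteins bind in vitro.
ID1: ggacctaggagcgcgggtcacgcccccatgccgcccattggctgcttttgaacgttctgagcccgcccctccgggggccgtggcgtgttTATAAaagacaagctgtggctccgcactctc
ID3: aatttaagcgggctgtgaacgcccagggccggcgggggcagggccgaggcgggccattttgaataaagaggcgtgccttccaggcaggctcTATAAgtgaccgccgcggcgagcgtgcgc
SMAD6: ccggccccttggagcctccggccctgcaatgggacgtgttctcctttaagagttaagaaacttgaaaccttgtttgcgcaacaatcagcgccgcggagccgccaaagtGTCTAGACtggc
Both ID1 and ID3 held TATAA, beginning 31 and 29 bases before the start, as did ID4 at 29 bases. Over the 250 bases before each start, 13.6% of all 35116 promoter windows in the table held it; some genes have several windows. The palindrome GTCTAGAC, searched on both strands, began 12 bases before the SMAD6 start and occurred in 0.182% of all windows. None of the windows of the ID genes held it, the GC-rich SMAD motif GGCGCC (16.4% of all windows) or the E2F-like motif TTTNNCGC (5.92% of all windows), both searched on both strands. These matches are descriptions of short windows only.

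Values are log2 intensities of arrays brought to the same median, with 0 as a floor. Differences are deficient minus proficient, with n = 3 in each group. RB1 itself did not separate the groups (7.01, 5.77 and 7.65 against 3.45, 5.09 and 6.04; difference −1.95, SE 0.76, adjusted p 0.302 over all genes in limma's test), so every direction rests on the labels, and ERBB2 differed by −1.31 (SE 0.48). Genes had a median SD of 0.84 in the deficient group and 0.40 in the proficient group, and 0.326% to 0.684% of genes were at the floor in the proficient group against 4.71%, 1.62% and 0.684% in deficient arrays 1 to 3. Of 7 measured epithelial markers 6 were lower in mean in the deficient group, against 58.6% of all genes, and their median difference was −1.27. The summed scaled intensity of the 7 was 2938 to 3519 against 4050 to 6205. The 1 exception was EPCAM, higher by 0.24 (SE 0.46) and bright in all 6 arrays, at 9.99 to 10.39. The summed intensity of 8 fibroblast markers was 160 to 291 in the deficient group and 169 to 225 in the proficient group, that of 5 endothelial markers 307 to 360 and 477 to 598, and that of 5 leukocyte markers 202 to 252 and 336 to 462. COL3A1 and THY1 were at the floor in at least 1 array. In the endothelial and in the leukocyte list, 3 genes were lower and 2 higher in mean. Most of each sum came from 1 gene, CDH5 (7.82 to 9.10 over the 6 arrays) and CD68 (6.77 to 8.46). As the arrays are of an established epithelial line, these sums are not read as numbers of cells of other types. The part of the markers in the results below was not tested. For a gene with a lower signal, fewer cells expressing it and less of its RNA per cell cannot be told apart.

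ID1 was lower in every deficient array than in every proficient array, as were 15.3% of all genes, but did not pass the test across all genes. Among the 10 genes, 0 passed the threshold of 0.05 for the adjusted p of limma's test, and 1 (ID1, lower) had an unadjusted p under 0.05. Over all 18417 genes, 0.00543% passed as lower, which is 1 gene, and 0% as higher, while 10.8% were lower and 2.85% higher at an unadjusted p under 0.05. Of the 10 genes, 7 had a difference below 0, against 58.6% of all genes, and their median difference was −0.49 against −0.21 over all genes.

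**Figure D1:**
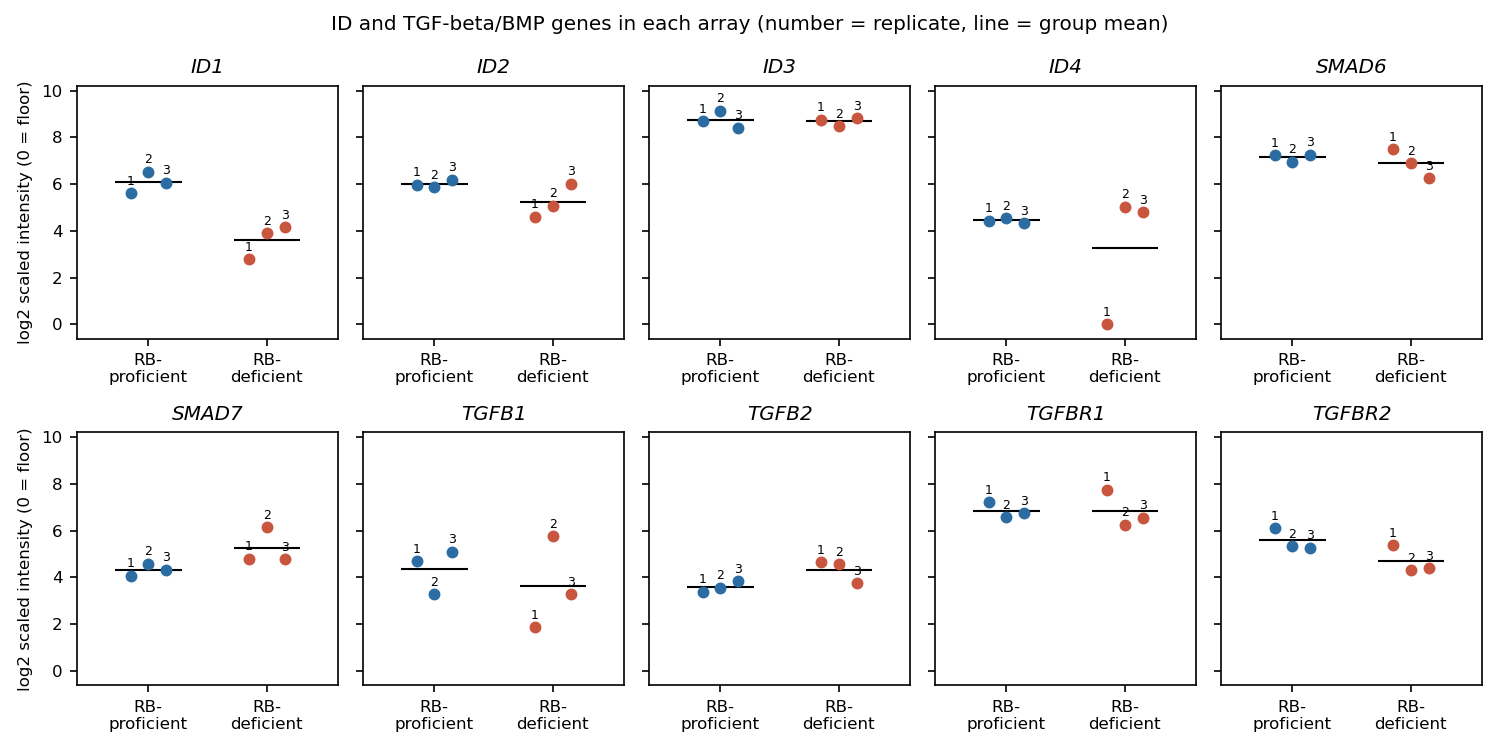
Log2 scaled intensity of the 10 genes in each array (vertical axis, 0 is the floor), with RB-proficient arrays in blue, arrays labelled RB-deficient in red, numbers for replicates and a line at each group mean. The groups of ID1 do not overlap (5.63 or more against 4.16 or less), ID3 lies between 8.42 and 9.15 in all arrays, and ID4 is at the floor in deficient array 1.

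ID1 read 5.63, 6.54 and 6.06 in proficient arrays 1 to 3 against 2.79, 3.92 and 4.16 in deficient arrays 1 to 3. The deposited intensities behind them were 49.6, 93.9 and 60.1 against 5.50, 15.1 and 18.6. The groups were separate, as for the 15.3% of all genes apart and lower, and the lowest value lay in deficient array 1. The difference of −2.45 (SE 0.56, 95% interval −3.70 to −1.21) is a 5.48-fold lower signal, or −2.24 relative to the median of all genes. The adjusted p was 0.206 in limma's test (unadjusted p 0.00147), and the gene ranked 115 of 18417 by p and 421 by lowest difference. With 16 added to every value instead of flooring, 186 genes were called lower and 7 higher, against 1 and 0 in the main setting. ID1 was then among those called lower, at −1.54 (adjusted p 0.0483 in limma's test). Its direction was the same in all 16 alternative settings in which ID1 was tested, with differences from −2.72 to −1.54 and adjusted p from 0.0483 to 0.709. The filter on the dimmest 50% of genes removed it. Of 6 reference genes 4 were lower in mean (58.6% of all genes were below 0), and 2 were higher, by 0.24 or less. The largest differences were those of ACTB, at −1.92 (SE 0.50), and GAPDH, at −1.23 (SE 0.47). The part of the reference genes in the ID1 result was not tested beyond the within-array differences from ACTB and GAPDH below.

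ID3 had nearly the same mean in both groups. Its values were 8.71, 9.15 and 8.42 in the proficient group against 8.75, 8.48 and 8.83 in the deficient group. All values of the second group lay within the range of the first. The difference was −0.07 (SE 0.48, 95% interval −1.14 to 1.00, adjusted p 0.959 in limma's test), so a change of up to about 1 on the log2 scale, which is 2-fold, either way is inside the interval. Its sign was not settled, since quantile normalization gave 0.09 and centring on the gene median 0.07.

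ID2, the member known to bind RB, read 5.97, 5.86 and 6.20 in the proficient group against 4.61, 5.08 and 6.02 in the deficient group. The third of these lay inside the proficient range, and the other two lay below it. The difference was −0.77 (SE 0.53, 95% interval −1.96 to 0.42, adjusted p 0.541 in limma's test). Without deficient array 3 it was −1.16, and without deficient array 1 it was −0.46, so single arrays moved it by over 1.5 times. ID4, which can oppose the other ID proteins in some settings, read 4.44, 4.56 and 4.35 against 0, 5.03 and 4.80. The 0 is the floor and comes from a deposited intensity of 0.00433 in deficient array 1, while the other two arrays of that group lay above all proficient values. The ID4 difference of −1.17 (SE 1.16, adjusted p 0.671) therefore rested on 1 array, and without it the sign turned to 0.47 (adjusted p 0.583). A floor of 16 also turned it, to 0.16.

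Within single arrays, where scaling between arrays cancels, ID1 was lower against ID3 and ID2 in the deficient group than in the proficient group. The log2 difference ID1 minus ID3 was −3.08, −2.61 and −2.36 in the proficient group against −5.97, −4.56 and −4.68 in the deficient group. The groups did not overlap, and the mean shifted by −2.39. ID1 minus ID2 shifted by −1.68, again without overlap. Each shift is the ID1 difference of −2.45 less that of the other gene (−0.07 for ID3, −0.77 for ID2). It therefore restates the ID1 result and is no separate support for it. For each of these pairs an exact permutation test over the arrays, two-sided, gave p = 0.10, the smallest that 3 against 3 allows, and p = 0.20 after adjustment over the 6 pairs computed, which were chosen after the values were seen. Against reference genes the picture differed by gene. ID1 minus GAPDH shifted by −1.23 without overlap (exact p = 0.10), whereas ID1 minus ACTB shifted by −0.54 with overlapping groups (exact p = 0.60). Deficient arrays 2 and 3 had ID1 minus ACTB values of −3.41 and −2.65, inside the proficient range of −3.60 to −2.50. Only deficient array 1 lay below it, at −5.06. The other pairs, ID1 minus ID4 (−1.28, exact p = 0.40) and ID2 minus ID3 (−0.70, exact p = 0.20), overlapped between groups. For ID1 minus ID4 the overlap came from deficient array 1 alone, at 2.79, where ID4 was at the floor. Deficient arrays 2 and 3 were at −1.12 and −0.64, below the proficient range of 1.19 to 1.98.

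**Figure D2:**
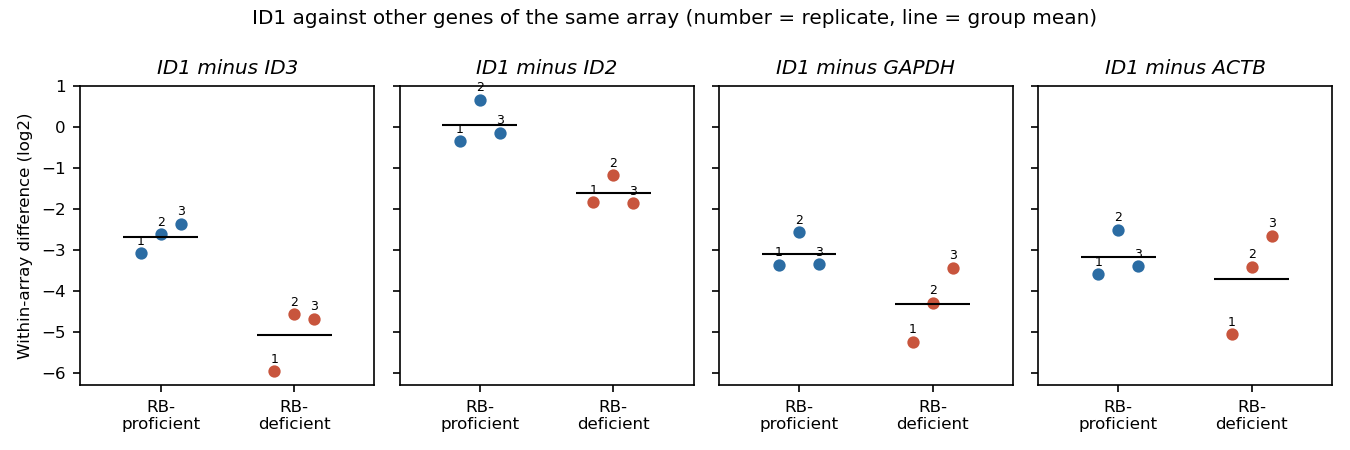
Log2 difference between ID1 and another gene of the same array (vertical axis) for ID3, ID2, GAPDH and ACTB, in RB-proficient (blue) and RB-deficient (red) arrays, with replicate numbers and a line at each group mean. The groups are apart for ID3, ID2 and GAPDH, with shifts of −2.39, −1.68 and −1.23, and overlap for ACTB, with a shift of −0.54.

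The genes whose 6 values followed ID1 most closely were MCTP2, TRIP10 and NUMA1. Likeness was the root mean square difference of log2 values centred on each gene's mean, over 6 arrays and 9208 genes brighter than the median gene, and it was 0.18, 0.23 and 0.26 for these 3. Their own differences were −2.19, −2.35 and −2.02, with adjusted p of 0.210, 0.213 and 0.235 in limma's test. Profiles within 0.5 of ID1 were found for 67 genes, or 0.728% of those compared. ID3 had such neighbours in 23.3% of them and ID2 in 16.9%, led by TMEM69, GPATCH2 and RBMS1 for ID3 and by PPP4R3B, TFRC and MARS2 for ID2. ID4 was nearest to TAOK1, TASOR2 and INTS5 (0.31, 0.35 and 0.38), and 0.13% of the compared genes lay within 0.5. Its profile is largely that of deficient array 1, where ID4 was at the floor. With the same limit of 0.5 for every gene, these shares also depend on how much each profile varies. The nearest genes are given for their pattern alone.

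Neither inhibitory SMAD passed the test. SMAD7, which blocks TGF-beta and BMP receptors and recruits ubiquitin ligases to them, read 4.07, 4.60 and 4.33 in the proficient group against 4.80, 6.14 and 4.80 in the deficient group. The groups did not overlap, with the highest value in deficient array 2. Groups separated in this way, with higher values in the deficient group, for 7.12% of all genes, and separated with lower values for 15.3%, so 1 of 10 in each direction (SMAD7 and ID1) is near the background. The SMAD7 difference was 0.91 (SE 0.55, 95% interval −0.31 to 2.14, adjusted p 0.486 in limma's test). Without deficient array 2 it was 0.46. SMAD6, which acts mainly on BMP receptors, read 7.23, 6.96 and 7.27 against 7.50, 6.91 and 6.26. These groups overlapped, with deficient array 1 above and deficient arrays 2 and 3 below all proficient values. The SMAD6 difference was −0.26 (SE 0.51, 95% interval −1.41 to 0.89, adjusted p 0.836) and 0.05 without deficient array 3.

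Neither ligand gene passed the test. TGFB1, the most widely studied TGF-beta ligand, read 4.70, 3.27 and 5.10 in the proficient group against 1.87, 5.77 and 3.28 in the deficient group. Deficient array 1 gave its lowest and deficient array 2 its highest value, with an SD of 1.98 in that group and 0.96 in the proficient group. Its difference of −0.72 (SE 0.94, adjusted p 0.751 in limma's test) was 0.17 without deficient array 1 and −1.78 without deficient array 2. Flooring at 16 gave −0.011, and adding 16 to every value gave −0.20. TGFB2, a second isoform of the ligand, read 3.39, 3.57 and 3.84 against 4.65, 4.56 and 3.77. Deficient arrays 1 and 2 lay above, and deficient array 3 inside, the proficient range. The TGFB2 difference was 0.73 (SE 0.49, 95% interval −0.38 to 1.84, adjusted p 0.538), and it was 0.17 without both deficient arrays 1 and 2. All proficient values of TGFB2 came from deposited intensities of 10.5 to 12.9, so the size of its difference depends on how low intensities are treated. A floor of 16 gave 0.40, and an offset of 16 gave 0.37.

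The receptors also overlapped between groups. TGFBR2, the type II receptor that binds the ligand first, read 6.12, 5.35 and 5.28 in the proficient group against 5.40, 4.30 and 4.38 in the deficient group. Deficient array 1 lay inside the proficient range and the other two lay below it. The difference was −0.89 (SE 0.54, 95% interval −2.09 to 0.31, adjusted p 0.487 in limma's test), and it was below 0 in all 17 alternative settings (−1.24 to −0.60). TGFBR1, the type I receptor kinase that phosphorylates SMAD2 and SMAD3, read 7.23, 6.58 and 6.74 against 7.75, 6.26 and 6.56. Deficient array 1 was the highest of all 6 arrays and deficient array 2 the lowest. The TGFBR1 difference was 0.0026 (SE 0.55, 95% interval −1.24 to 1.25, adjusted p 0.998), and its sign turned in 6 of 17 alternative settings.

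**Figure D3:**
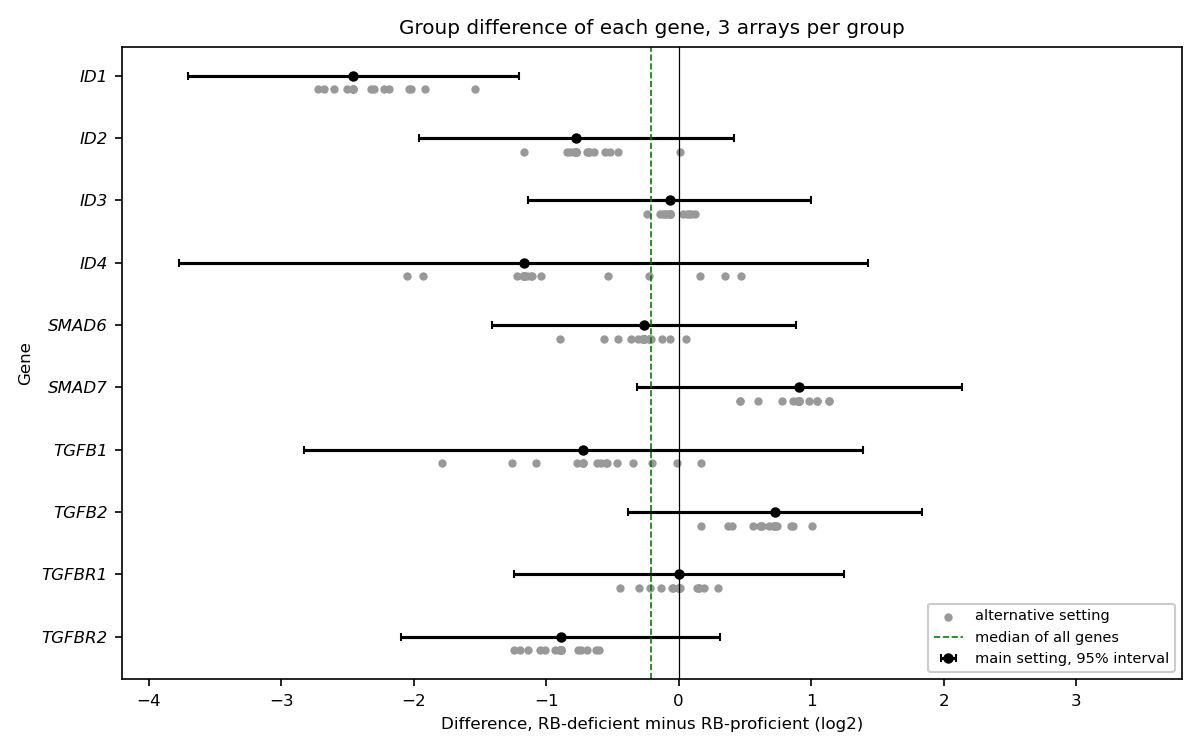
Difference of each of the 10 genes, RB-deficient minus RB-proficient (horizontal axis, log2), with its 95% interval (black), the values under alternative settings (grey) and the median of all genes, −0.21 (green dashes). ID1 alone among the 10 has an interval that leaves out 0 (−3.70 to −1.21), and the grey points of ID4 and TGFB1 spread to both sides of 0.

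The other genes of the pathway were described from lists of 75 symbols, of which 72 were analysed here. In limma's test 1 of the 72, FN1, passed the threshold, in the lower direction, which was known when the list was made. In all, 6 were lower and 2 higher at an unadjusted p under 0.05, which is no more than the shares of all genes (10.8% and 2.85%), and 49 had a difference below 0 (68.1% against 58.6% of all genes). Their median difference was −0.39. FN1, which encodes fibronectin and is induced by TGF-beta, read 5.43, 5.10 and 4.98 in the proficient group against 0, 0 and 0.21 in the deficient group. It fell by 5.10 (SE 0.46, adjusted p 0.0186), a size set by the floor, and it did not pass in 8 of 16 alternatives. These included quantile normalization (adjusted p 0.127) and a floor of 16 (adjusted p 0.0741), with the latter difference at −1.17. The call was also lost without any one of the arrays other than deficient array 3 (adjusted p 0.0512 to 0.299).

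The receptor-regulated and common SMADs were lower in mean for 6 of 6 members (58.6% of all genes were below 0), with a median difference of −1.18, although 0 passed in limma's test and 1 had an unadjusted p under 0.05. That gene was SMAD4, the common partner of both branches, with values of 6.18, 6.58 and 6.78 in the proficient group against 4.15, 4.35 and 5.61 in the deficient group. Its groups did not overlap, and its difference was −1.81 (SE 0.55, adjusted p 0.237). SMAD5, a BMP-branch SMAD, also had no overlap, at −0.69 (SE 0.48), which makes 2 of 6 apart and lower against 15.3% of all genes. SMAD1 at −1.46 (SE 0.78) and SMAD9 at −1.47 (SE 0.93) overlapped. SMAD1 was at −0.55 without deficient array 1 and at −0.08 without deficient arrays 1 and 2. SMAD9 was at the floor in deficient array 1, and its difference was −0.41 without that array and −0.045 with a floor of 16. The list median was −2.28, −0.75 and −0.31 in deficient arrays 1 to 3, and −0.48 without the first of them. All 6 were below 0 in each scaling alternative.

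Among 10 other receptors 9 were lower in mean (58.6% of all genes were below 0), with a median of −0.68 and 0 calls. ACVR1, a type I BMP receptor, read 5.72, 5.48 and 4.87 in the proficient group against 2.29, 3.22 and 4.43 in the deficient group. Its groups were apart, with a difference of −2.04 (SE 0.63, adjusted p 0.239 in limma's test), or −1.21 with a floor of 16. ACVRL1, a type I receptor best known from endothelium, was apart in the other direction, with values of 5.62, 5.09 and 5.64 and then of 7.11, 7.14 and 6.12. The ACVRL1 difference was 1.34 (SE 0.51, adjusted p 0.300 in limma's test). With 1 of 10 receptors apart in each direction, the list is near the shares of all genes (15.3% lower and 7.12% higher). ACVR1B, the activin type I receptor, differed by −1.50 (SE 0.68) with overlap, and by −0.89 without deficient array 2. The receptor list had a median of −0.13 without deficient arrays 1 and 2, with 5 of 10 below 0. Of 19 other ligands 12 were higher in mean, with a median of 0.31 and 0 calls, whereas 58.6% of all genes were below 0. Separate groups were found for 0 of the 19, against 15.3% of all genes apart and lower and 7.12% apart and higher. MSTN, which encodes myostatin, had the largest difference of the 19, at 1.81 (SE 1.14). It rested on deficient array 1, where MSTN read 8.00 against 2.45 to 3.51 in the other arrays. BMP8A differed by 1.16 (SE 0.66), by 0.75 and 1.80 without deficient arrays 1 and 2 in turn, and by 0.13 with a floor of 16. LEFTY2, an inhibitor of nodal signalling, had a 2.14-fold larger mean signal (SE 0.66 on the log2 scale) that rested on deficient array 2, and its log2 difference was 0.43 without it.

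**Figure D4:**
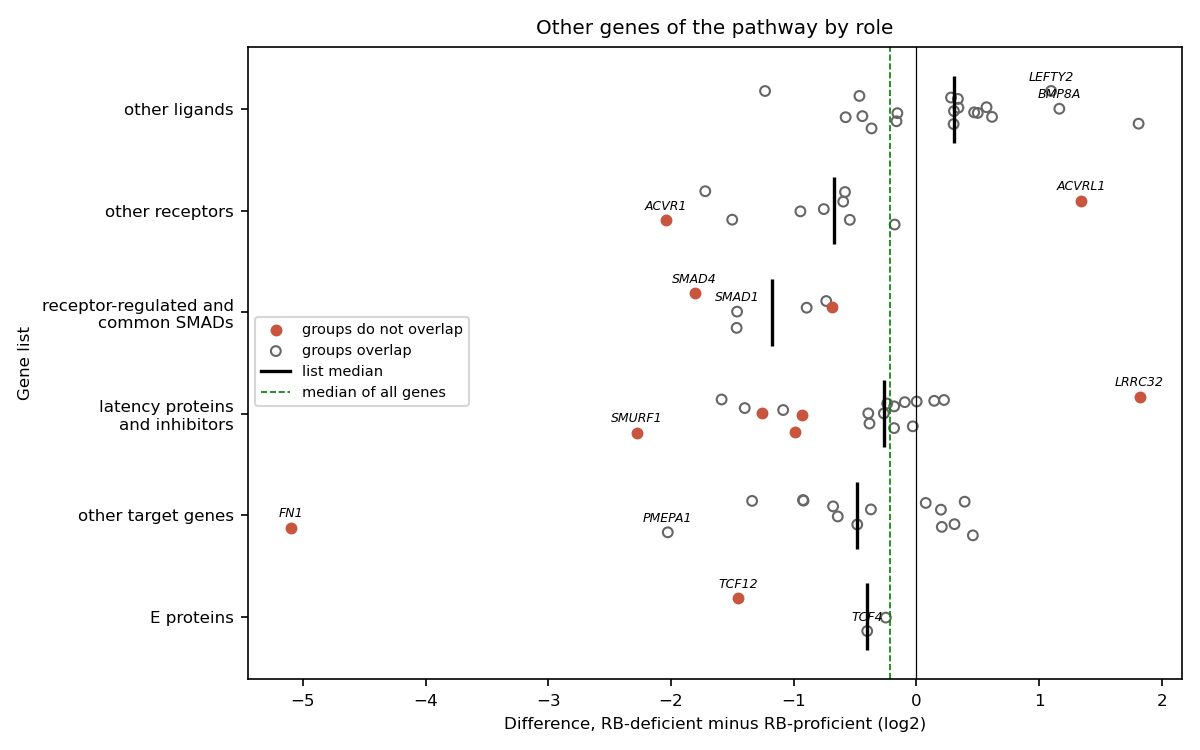
Difference of 72 other pathway genes, RB-deficient minus RB-proficient (horizontal axis, log2), by role, with filled points for genes whose groups do not overlap, a bar at each list median and green dashes at the median of all genes. The SMAD list has its median at −1.18 and the ligand list at 0.31, and FN1 lies apart at −5.10.

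Latency proteins and inhibitors had a median of −0.27, near that of all genes, and 0 calls among 19. SMURF1, a ubiquitin ligase that removes SMADs and receptors, read 6.27, 5.25 and 5.49 in the proficient group against 1.63, 4.59 and 3.96 in the deficient group, a difference of −2.28 (SE 0.76, adjusted p 0.268 in limma's test), or −1.40 without deficient array 1. TGIF1, a repressor that binds SMADs, differed by −1.26 (SE 0.50), and LRRC32, which holds latent TGF-beta at the cell surface, by 1.82 (SE 0.57). All 3 had separate groups, as did LTBP4 and CHRD, both lower, which makes 4 of 19 lower and 1 higher, near the shares of all genes (15.3% and 7.12%). Without deficient arrays 1, 2 and 3 in turn the list median was −0.73, 0.02 and −0.43. Of the other target genes besides FN1, PMEPA1 differed by −2.03 (SE 1.13), with deficient array 2 at 0.21, by −0.51 without that array and by 0.27 without deficient arrays 1 and 2. MSX2, a homeobox target of BMPs, differed by −1.34 (SE 0.92), and by −0.28 without deficient array 1. The list of 15 targets had 9 below 0. Of the 3 E proteins bound by ID proteins, TCF12 read 5.77, 5.81 and 5.93 against 3.53, 4.51 and 5.11. Its groups were apart, with a difference of −1.45 (SE 0.54, adjusted p 0.290). That makes 1 of 3 apart and lower, against 15.3% of all genes. TCF4 and TCF3 differed by −0.40 (SE 0.50) and −0.25 (SE 0.53) with overlap, and by −0.16 and 0.031 without deficient array 2.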

How the data were processed

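The authors deposited linear intensities, 1 per probe set and array. They were made with Affymetrix Expression Console 1.1 per the submitters' processing notes, with background correction, summarisation and normalization not given in the sources used here. Array medians ran from 21.4 to 28.0. Here all arrays were multiplied to the median of these medians, floored at 1 and put on the log2 scale. Of 33297 probe sets, 19460 had 1 symbol in the platform annotation; of several per gene the brightest was used, giving 18417 genes. Detection above background was not assessed, and the number of arrays limits precision. The test was limma 3.58.1 under R 4.3.3 (lmFit and eBayes, no covariates, two-sided, Benjamini-Hochberg over all genes, threshold 0.05), tested on simulated data. No 2 arrays were identical. Same-numbered arrays did not deviate together (r −0.12, 0.07 and −0.11 across genes), so none were paired.

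The genes and lists were chosen with earlier results of these data known. Named were all 10 genes, the 3 of each pathway list with the smallest p and any past the threshold. Also named were RB1, ERBB2, ACTB, GAPDH and the 3 nearest profiles of each ID gene. SMAD5, LTBP4 and CHRD were added for their separate groups, and EPCAM, COL3A1, THY1, CDH5 and CD68 as markers. The listed genes without a value are not reported here.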

Additional observations from a re-analysis of the deposited data

How the results depend on the processing

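The 17 alternatives were quantile normalization, no scaling, centring, a floor or an offset of 16, a filter on the dimmest 50% of genes, the mean of probe sets, trend and robust, array weights, the replicate block, each array left out and RB-deficient 1 and 2 left out. ID1, SMAD7, TGFB2 and TGFBR2 kept their direction in every alternative in which they were tested, and the other 6 of the 10 genes changed sign in at least 1. With the offset of 16, 1 of the 10 (ID1) passed, in a setting that called 186 genes lower and 7 higher over all genes. In any other setting 0 of the 10 passed.

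Signs turned as follows. ID3 was 0.093 with quantile normalization, 0.065 with centring and 0.075 without RB-deficient 1 and 2; ID4 was 0.16 with a floor of 16 and 0.35 without RB-deficient 1 and 2. ID2 was 0.010 without those 2 arrays. TGFBR1 was −0.043 without scaling, −0.22 with array weights and −0.30 without those 2 arrays. MSTN was −0.016, PMEPA1 0.27 and TCF3 0.0022 without them. With single arrays left out, ID3 ran from −0.24 to 0.13, ID4 from −2.05 to 0.47, SMAD6 from −0.57 to 0.052, TGFB1 from −1.78 to 0.17, TGFBR1 from −0.45 to 0.30 and TCF3 from −0.56 to 0.031. The cause was not tested beyond what leaving out an array shows.

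Over all genes, 1 was called lower and 0 higher; the lower count was 0 with quantile normalization, 48 with a floor of 16, 186 with the offset of 16, 4 with the filter on dim genes, 61 with trend and robust, and 0 without RB-deficient 1 and 2. The higher count was 10 with a floor of 16 and 7 with the offset of 16. With single arrays left out, 0 to 4 were lower. Other pathway genes called were 0 with quantile normalization, a floor of 16, the filter (which removed FN1) and without RB-deficient 1 and 2, and 0 to 1 with single arrays left out. With the replicate number as a block, the count over all genes was 1, the count of the 10 genes 0, the ID1 difference −2.45 (adjusted p 0.153 in limma's test), and no call changed. Centring moved the median of all genes from −0.21 to −0.08 and the genes at an unadjusted p under 0.05 from 1996 lower and 525 higher to 1620 and 781. A floor of 16 took the TGFB1 difference from −0.72 to −0.011 and that of ID1 from −2.45 to −2.02.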
